A study of Homo sapiens with 12 samples.

Results

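The response to NGFR siRNA that H460 and H1299 cells had in common was taken from 1 fit of all 12 libraries and all 21583 genes with enough reads to test. A gene was counted as moving the same way when the mean of its responses in both lines passed an adjusted p of 0.05, the response had that sign in each line, and each line alone had an unadjusted p under 0.05. Of the genes tested, 325 (1.51%) did so, 146 (0.676%) higher and 179 (0.829%) lower after siNGFR, out of 64253 genes in the table. Both lines come from human lung cancer of the non-small-cell kind. H460 has wild-type p53 and H1299 has none, so these genes moved in the presence and in the absence of p53. The 4 groups were H460 with control siRNA (siCont), H460 with siRNA against NGFR (siNGFR), H1299 with siCont and H1299 with siNGFR, each with 3 biological replicates of 1 line grown in the same serum-containing medium and transfected in the same way. The labels give neither the siRNA sequence, nor the number of siRNAs, nor the time of harvest, and the titles of the H1299 siNGFR libraries carry a "3" that they do not explain. An effect of the siRNA itself and an effect of lower NGFR cannot be told apart in this design.

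NGFR, also called p75NTR, is a cell-surface receptor of the neurotrophins that has no kinase domain of its own and signals through adaptor proteins, in neurons together with the TRK receptors. p53 is a transcription factor that raises genes of cell cycle arrest, DNA repair and cell death, and its own antagonist MDM2. Genes that answer to NGFR siRNA in both lines can thus be read without p53 as a common factor, and the question put to them here was which they were and how alike the lines were.

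The libraries held 16672164 to 36116823 counts. NGFR was at 0 to 3 counts in the 6 H460 libraries and 0 to 6 counts in the 6 H1299 libraries, siCont included, so the knockdown could not be checked by its own transcript. The keratins KRT8 and KRT18 and VIM were abundant in both lines, while EPCAM (0 to 6 counts) and CDH1 (0 to 2 counts) were near 0 in every library. The 4 markers of the lung lineage summed to at most 0.378 CPM (counts scaled to each library's effective size), so neither line carried those defining markers. The 5 fibroblast markers summed to 23.6 to 26.7 CPM in H460 siCont, 28.3 to 33.98 CPM in H460 siNGFR and at most 1.04 CPM in H1299. Most of the H460 sum was COL3A1, at 20.9 to 22.7 CPM in siCont and 26.5 to 31.4 CPM in siNGFR, while COL1A1 was at 1.91 to 3.28 CPM and 1.43 to 2.10 CPM and LUM at 0.353 to 0.683 CPM and 0.126 to 0.400 CPM. DCN (0 to 2 counts) and PDGFRA (0 to 1 counts) were near 0 in H460, and the part of these markers in the results was not tested. The library H1299 siNGFR replicate 3 stood apart from the other siNGFR libraries of its line. On the first principal component within H1299, which took 62.8% of the variance, it lay at −20.8, beside the siCont libraries at −54.6 to −23.9 and away from the other siNGFR libraries at 60.3 and 75.4. It stayed in every value below unless its absence is stated, and the counts without it are given beside the results.

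With each line on its own, the fit called 461 genes in H460 (2.14%) and 108 in H1299 (0.5%) at an adjusted p under 0.05. Both lists held 10 genes that moved the same way (0.0463%) and 2 that moved in opposite directions (0.00927%), CDKN1A and LEPREL1. At an unadjusted p under 0.05 in each line, 497 genes moved the same way (2.3%) and 273 in opposite directions (1.26%). The lines shared no library. Over 13959 genes whose mean count reached 50, the log2 fold changes of the lines had a Pearson correlation of 0.07, given as a description since genes are not independent replicates. Of the genes called in H460, 26.2% were among those that moved the same way, as were 23.1% of those called in H1299, against 1.51% of all genes. The rule used the same responses that made those calls, so these shares are a description and do not measure how much was shared.

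**Figure D1:**
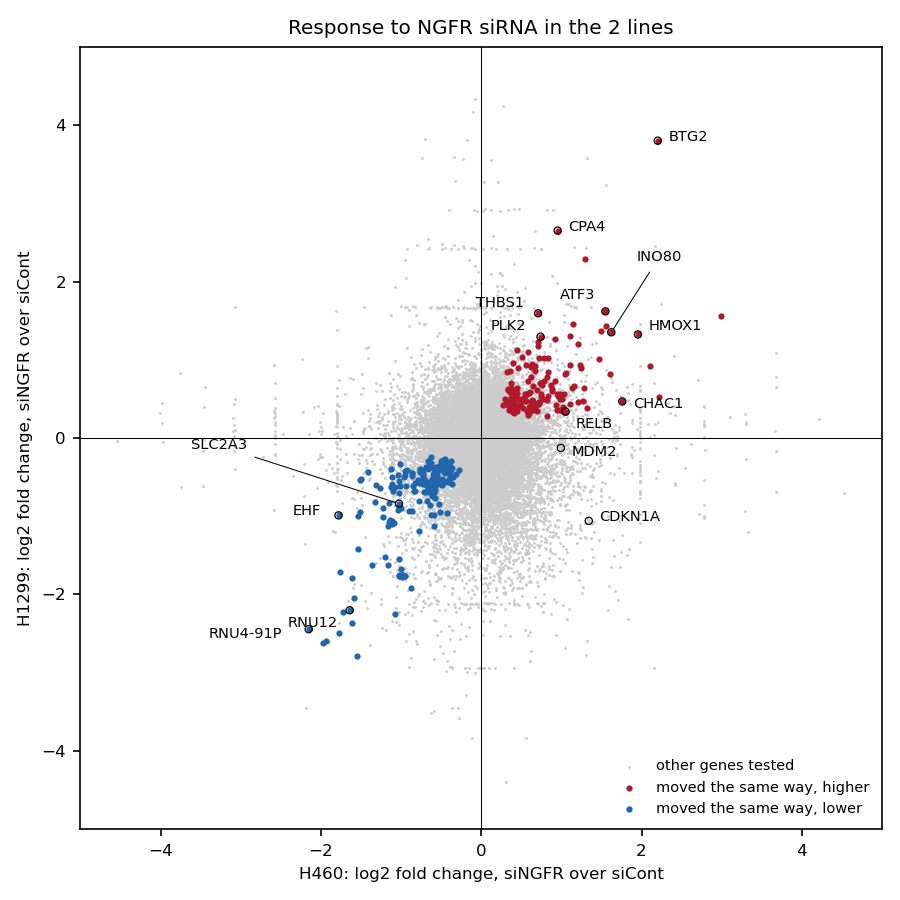
Log2 fold change of siNGFR over siCont in H460 (horizontal) and H1299 (vertical) for each of the 21583 genes tested, 1 point per gene, with the 146 genes higher in both lines in red and the 179 lower in both in blue. Both axes are log2 scales, most genes form a cloud with little tilt, and the H1299 position of BTG2 rests on 6 reads.

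The mean response passed an adjusted p of 0.05 in 557 genes (2.58%), 255 higher (1.18%) and 302 lower (1.4%). Of these, 536 had the same sign in both lines and 21 had opposite signs, and 211 of the 536 did not reach an unadjusted p of 0.05 in each line. In bulk RNA, a change in the share of some cells and a change in RNA per cell cannot be told apart. Among the 146 rises, the median log2 fold change was 0.66 in H460 and 0.56 in H1299, against −0.01 and 0.00 over all genes tested. The mean of the lines ran from 0.35 up, 49 genes rose by over 1.5-fold and 12 by over 2-fold in both lines. Among the 179 falls, the medians were −0.73 and −0.60, and the mean of the lines ran from −2.30 to −0.34. Of these, 84 fell by over 1.5-fold and 35 by over 2-fold in both lines. In 114 of the rises and 145 of the falls the siNGFR libraries did not overlap the siCont libraries in either line. Over all genes that held for 333 rises (1.54%), 374 falls (1.73%) and 373 genes of opposite direction (1.73%), but the fold changes had chosen the members, so the counts are a description. Higher genes made up 44.9% of the calls that moved the same way, but 13.6% when libraries were scaled by their size alone, which put the median of all genes at −0.32 in H460 and 0.17 in H1299. Directions below are relative to the main scaling.

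The size of the response in one line was set against that in the other. The rule itself asked for the same sign and an unadjusted p under 0.05 in each line, which leaves out genes whose lines differ, so these counts are a description and nothing is read from them. None of the 325 passed an adjusted p of 0.05 for the difference between the lines in edgeR's quasi-likelihood test, against 92 of all genes (0.426%). At an unadjusted p under 0.05 there were 25 among the rises and 14 among the falls, where 17% of all genes reached that level, while limma voom called 163 and DESeq2 called 3 of the genes that each of them put in the group. The change was larger in H460 for 88 of the rises and 107 of the falls. They do not show that the lines responded alike. CHAC1, for one, rose by 1.29 ± 0.31 (SE) more in H460 on the log2 scale (adjusted p = 0.087), and for THBS1 the difference H460 minus H1299 was −0.89 ± 0.26 (SE, adjusted p = 0.132).

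Where a gene is said below to pass in a fit that left out 1 library, the adjusted p of its mean response stayed under 0.05. The rise with the smallest p was HMOX1 (ENSG00000100292, chromosome 22, 35380361 to 35394214 of GRCh38), heme oxygenase 1, which breaks down heme and is a classic target of NRF2. In H460, HMOX1 stood at 64.5, 50.4 and 55.2 CPM in the siCont libraries and 236, 210.2 and 214 CPM in the siNGFR libraries. In H1299, HMOX1 stood at 10.9, 10.4 and 9.19 CPM in siCont and 30.7, 27.8 and 18.1 CPM in siNGFR. No siNGFR library overlapped a siCont library in either line, although replicate 3 was the lowest of the H1299 siNGFR libraries. HMOX1 rose 3.88-fold in H460 and 2.50-fold in H1299 (mean log2 fold change 1.64 ± 0.12 SE, adjusted p = 2.6e-05). GCLM, a subunit of the glutathione-synthesis enzyme and another NRF2 target, moved the other way. In H460, GCLM stood at 32.99, 38.95 and 37.8 CPM in the siCont libraries and 30.1, 25.02 and 28.1 CPM in the siNGFR libraries. In H1299, GCLM stood at 8.08, 10.4 and 8.61 CPM in siCont and 6.11, 6.23 and 7.92 CPM in siNGFR. The fall was small (−0.41 ± 0.10 SE, adjusted p = 0.0428), and of the 12 fits that each left out 1 library it passed only in that without H1299 siNGFR replicate 3. Of the 27 tested genes of the list of NRF2 targets and iron handling, HMOX1 rose and GCLM fell, 25 did neither, and the list's median was 0.23 against −0.02 over all genes. Over all genes 0.676% rose and 0.829% fell in both lines. Without H1299 siNGFR replicate 3, 4 genes of the list rose and 1 fell (2.49% of all genes rose and 2.24% fell).

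Genes of the integrated stress response were also among the rises. In this pathway, phosphorylation of eIF2α slows translation and favours the factor ATF4, which raises genes of amino acid supply and, on prolonged stress, of cell death. ATF3 (ENSG00000162772, chromosome 1, 212565334 to 212620777), a transcription factor induced by many stresses, was low in every library. In H460, ATF3 stood at 0.462, 1.06 and 1.06 CPM in the siCont libraries and 2.50, 2.72 and 2.51 CPM in the siNGFR libraries. In H1299, ATF3 stood at 0.778, 0.486 and 0.578 CPM in siCont and 2.28, 2.19 and 1.33 CPM in siNGFR. All siNGFR libraries lay above all siCont libraries of their line, and the rise was 2.93-fold in H460 and 3.07-fold in H1299 (1.58 ± 0.23 SE, adjusted p = 0.00301). CHAC1 (ENSG00000128965, chromosome 15, 40952962 to 40956519), which degrades glutathione and is a target of ATF4, rose mainly in H460. In H460, CHAC1 stood at 1.11, 1.09 and 0.923 CPM in the siCont libraries and 3.25, 3.60 and 3.72 CPM in the siNGFR libraries. In H1299, CHAC1 stood at 3.41, 2.49 and 3.12 CPM in siCont and 5.22, 3.12 and 4.03 CPM in siNGFR. The groups were apart in H460 and overlapped in H1299, with 3.39-fold and 1.38-fold rises (1.11 ± 0.16 SE, adjusted p = 0.00232). SESN2, a stress protein that restrains mTORC1, and SLC7A5, a transporter of large amino acids, were the other members of the list that rose, by 0.71 ± 0.10 (SE) and 0.54 ± 0.12 (SE), with adjusted p-values of 0.00323 and 0.0329. In H460, SESN2 stood at 12.1, 12.1 and 10.4 CPM in the siCont libraries and 23.8, 22.3 and 24.1 CPM in the siNGFR libraries. In H1299, SESN2 stood at 6.52, 7.24 and 6.42 CPM in siCont and 9.87, 10.1 and 6.82 CPM in siNGFR. All SESN2 values were apart in H460, while H1299 siNGFR replicate 3 lay among the siCont libraries. With 1 library left out, SLC7A5 was still counted as moving the same way in 4 of 12 fits and overlapped in H460. In all, 4 of 31 tested genes of the list of the integrated stress and unfolded protein responses (12.9%, against 0.676% of all genes) rose in both lines and none fell. The median was 0.22. Without H1299 siNGFR replicate 3, 8 rose (2.49% of all genes did), and with scaling by library size alone 3 rose.

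CARS, the cysteinyl-tRNA synthetase, was in no list and was singled out after its values were seen, since it passed an adjusted p of 0.05 in each line. In H460, CARS stood at 16.3, 14.9 and 13.5 CPM in the siCont libraries and 25.1, 27.9 and 22.8 CPM in the siNGFR libraries. In H1299, CARS stood at 25.97, 23.7 and 26.9 CPM in siCont and 43.5, 45.1 and 34.7 CPM in siNGFR. The 6 siNGFR libraries were each above the siCont libraries of their line, with rises of 1.70-fold and 1.61-fold (0.72 ± 0.09 SE, adjusted p = 0.00129). ATF4P3, a processed pseudogene of ATF4 whose reads may come from ATF4 itself, rose by 0.57 ± 0.11 (SE, adjusted p = 0.0175).

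The promoters of CHAC1 and of CARS, which RefSeq calls CARS1, are shown because they hold the letters that the composite C/EBP-ATF element of stress-response genes can take, TGATGNAA on either strand. Each run is 300 bases of GRCh38.p14 from RefSeq, 250 before the annotated start and 50 after, on the strand of the gene, with the match in capitals. CHAC1 lies at chr15:40953221-40953520 (plus strand) and CARS1 at chr11:3057374-3057673 (minus strand). The match in CHAC1 starts at −209, that in CARS1 at −2, and a second CARS1 start in the table has none.
CHAC1: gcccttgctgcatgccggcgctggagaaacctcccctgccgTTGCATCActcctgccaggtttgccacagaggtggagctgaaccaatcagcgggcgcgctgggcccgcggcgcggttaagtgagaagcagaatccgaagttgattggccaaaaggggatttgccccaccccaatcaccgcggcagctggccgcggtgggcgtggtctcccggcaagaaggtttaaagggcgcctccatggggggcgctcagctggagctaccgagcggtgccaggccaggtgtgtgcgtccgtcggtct
CARS1: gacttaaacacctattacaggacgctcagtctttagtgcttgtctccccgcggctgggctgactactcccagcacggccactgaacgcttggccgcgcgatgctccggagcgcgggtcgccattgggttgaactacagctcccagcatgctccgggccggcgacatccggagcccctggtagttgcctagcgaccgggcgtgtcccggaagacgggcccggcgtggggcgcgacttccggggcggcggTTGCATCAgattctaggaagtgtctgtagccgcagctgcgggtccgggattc
The first ATF3 promoter of the table holds a match at −191 as well, and the second does not. Of the 110 rises with a promoter in the table, 8 (7.27%) held the element, namely AJUBA, ARID5B, ATF3, CARS1, CHAC1, DCTN1, DOCK10 and SYNE1, and of the 99 falls none did. Those shares count a gene when any of its promoters matched, and over the 11492 tested genes with a promoter the share was 2.79%. Over all 35116 promoters, counted per promoter, it was 3.62%. A match is a run of letters and was not tested as a site.

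Some p53 targets rose in the line without p53 too. The list held 53 tested genes, 33 of which were higher in H460 at an unadjusted p under 0.05 and none lower (6.24% of all genes were higher and 8.09% lower). In H1299, 11 were higher and 7 lower (10.1% and 12.1% of all genes), and 5 moved in opposite directions. Both lines together gave 7 rises (13.2% of the list, against 0.676% of all genes), THBS1, PLK2, SESN2, ABHD4, SESN1, BTG2 and TP53INP1, and no fall. The median of the list was 0.50 in H460 and 0.04 in H1299. With the 4 genes that had a group of libraries at 0 placed at the floor of 3 counts, the H1299 median was 0.02. Without H1299 siNGFR replicate 3, 13 of the list rose in both lines (2.49% of all genes did), and 4 rose with scaling by library size alone.

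**Figure D2:**
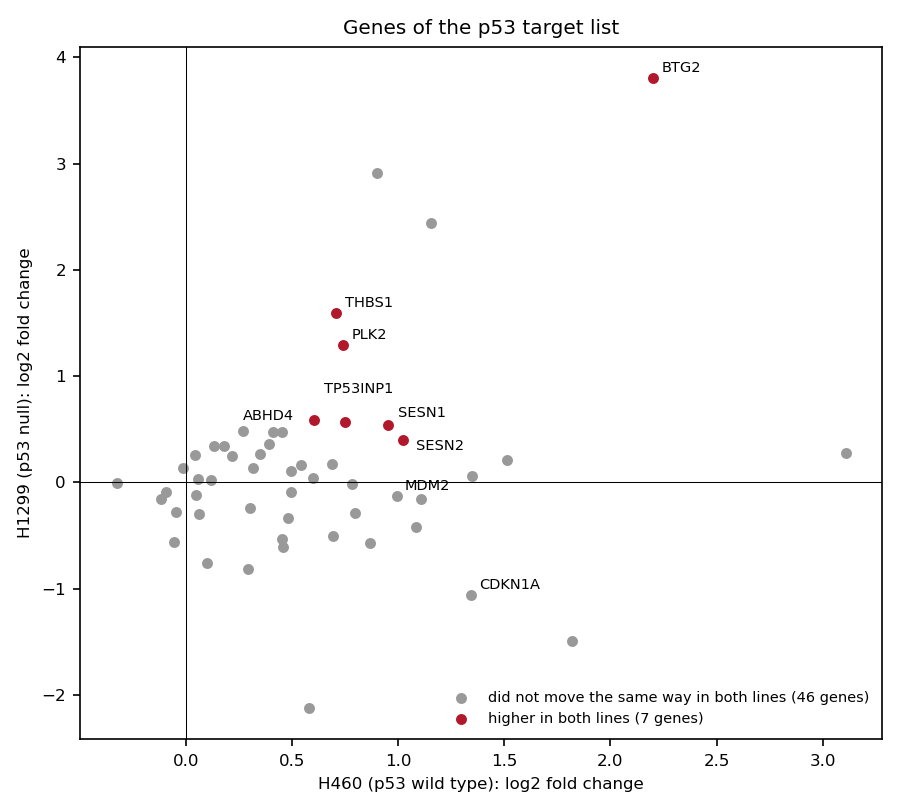
Log2 fold change of siNGFR over siCont in H460 (horizontal) and H1299 (vertical) for the 53 tested genes of the p53 target list, 1 point per gene. The 7 genes higher in both lines are red, CDKN1A and MDM2 lie to the right of 0 in H460 but below 0 in H1299, and the H1299 position of BTG2 rests on 6 reads.

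PLK2 (ENSG00000145632, chromosome 5, 58453982 to 58460260), a polo-like kinase of the stress response and centriole duplication, rose in all siNGFR libraries. In H460, PLK2 stood at 41.5, 43.7 and 48.2 CPM in the siCont libraries and 80.1, 73.7 and 68.99 CPM in the siNGFR libraries. In H1299, PLK2 stood at 8.43, 7.999 and 8.09 CPM in siCont and 24.7, 21.7 and 13.97 CPM in siNGFR. Groups were apart in both lines, by 1.67-fold in H460 and 2.46-fold in H1299 (1.02 ± 0.12 SE, adjusted p = 0.000766). THBS1 (ENSG00000137801, chromosome 15, 39581079 to 39599466), the secreted matrix protein thrombospondin 1, had most of its reads in H1299. In H460, THBS1 stood at 3.56, 3.28 and 3.83 CPM in the siCont libraries and 6.51, 5.77 and 5.19 CPM in the siNGFR libraries. In H1299, THBS1 stood at 90.5, 73.6 and 89.8 CPM in siCont and 298, 289 and 180.3 CPM in siNGFR. It rose 1.63-fold in H460 and 3.02-fold in H1299 (1.15 ± 0.13 SE, adjusted p = 0.000764), with no overlap. ABHD4, a lipid hydrolase, rose 1.52-fold and 1.503-fold (0.60 ± 0.10 SE, adjusted p = 0.00624). SESN1, a relative of SESN2, rose by 0.75 ± 0.17 (SE, adjusted p = 0.03) and TP53INP1, an autophagy and cell death factor, by 0.66 ± 0.16 (SE, adjusted p = 0.0429). BTG2, an antiproliferative gene, had 32, 35 and 34 counts in the H460 siCont libraries and 111, 137 and 150 in the siNGFR libraries. In H1299 it had 0 counts in each siCont library and 4, 0 and 2 in the siNGFR libraries, so the groups overlapped there. With the siCont group set at the floor of 3 counts, the H1299 ratio of BTG2 was 1.31. That ratio is not a lower limit of a rise, and the place of BTG2 among the rises rests on those 6 reads. With 1 library left out, SESN1 was still counted as moving the same way in 4 of 12 fits, TP53INP1 in 2 and BTG2 in 2.

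CDKN1A and MDM2, the best-known p53 targets, did not move the same way. CDKN1A encodes the cell cycle inhibitor p21. In H460, CDKN1A stood at 41.3, 36.8 and 36.1 CPM in the siCont libraries and 88.1, 90.6 and 110.4 CPM in the siNGFR libraries. In H1299, CDKN1A stood at 20.9, 20.6 and 19.4 CPM in siCont and 6.77, 7.82 and 14.5 CPM in siNGFR. Its level rose in H460 and fell in H1299, with no overlap in either line, and its mean log2 fold change was 0.14 ± 0.15 (SE). In H460, MDM2 stood at 28.1, 30.6 and 28.5 CPM in the siCont libraries and 61.5, 61.4 and 50.6 CPM in the siNGFR libraries. In H1299, MDM2 stood at 22.9, 31.1 and 25.3 CPM in siCont and 22.2, 24.6 and 25.8 CPM in siNGFR. MDM2 was apart in H460 and overlapped in H1299. The difference between the lines, H460 minus H1299, was 2.40 ± 0.30 (SE) for CDKN1A (adjusted p = 0.00468) and 1.12 ± 0.19 (SE) for MDM2 (adjusted p = 0.0192).

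INO80 (ENSG00000128908, chromosome 15, 40978880 to 41116354), the ATPase of a chromatin-remodelling complex, had one of the largest rises with a firm call in each line. In H460, INO80 stood at 7.81, 6.03 and 6.01 CPM in the siCont libraries and 20.97, 21.8 and 18.2 CPM in the siNGFR libraries. In H1299, INO80 stood at 3.59, 3.03 and 2.31 CPM in siCont and 9.97, 8.91 and 4.21 CPM in siNGFR. The rise was 3.08-fold in H460 and 2.55-fold in H1299 (1.49 ± 0.18 SE, adjusted p = 0.00111). Its H1299 siNGFR replicate 3 was less than 1 CPM above the highest siCont library. Other large rises with no overlap in either line were BSN, a presynaptic scaffold protein (1.30 ± 0.18 SE), DNAH1, an axonemal dynein (1.07 ± 0.12 SE), ANKRD1, a nuclear target of YAP (1.08 ± 0.17 SE), and C10orf54, which encodes the immune checkpoint protein VISTA (1.20 ± 0.17 SE). Their adjusted p-values were 0.00212, 0.000764, 0.00414 and 0.00244, and each passed in all 12 fits that left out 1 library. PLA2G4C, a phospholipase, and MR1, which presents vitamin metabolites to T cells, rose by 1.49 ± 0.28 (SE) and 0.97 ± 0.19 (SE). Each had few reads in 1 line. PLA2G4C had 5, 2 and 4 counts in H460 siCont and 10, 8 and 10 in H460 siNGFR. MR1 had 15, 4 and 11 counts in H1299 siCont and 53, 21 and 34 in H1299 siNGFR. PLA2G4C lost its call without H460 siCont replicate 5, and MR1 without H460 siCont replicate 6 or H1299 siNGFR replicate 1. HDAC9, a histone deacetylase, rose by 1.52 ± 0.38 (SE, adjusted p = 0.0479) from 0 to 4 counts per library in H460 siCont, and of the fits that left out 1 library only that without H1299 siNGFR replicate 3 still called it.

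CPA4, a carboxypeptidase, rose by 0.95 on the log2 scale in H460. In H1299 it had 0, 2 and 1 counts in the siCont libraries and 16, 3 and 13 in the siNGFR libraries. The ratio over the H1299 groups was 6.98 (95% exact interval 2.18 to 35.6, counting error only), and the call was lost without H1299 siNGFR replicate 1.

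**Figure D3:**
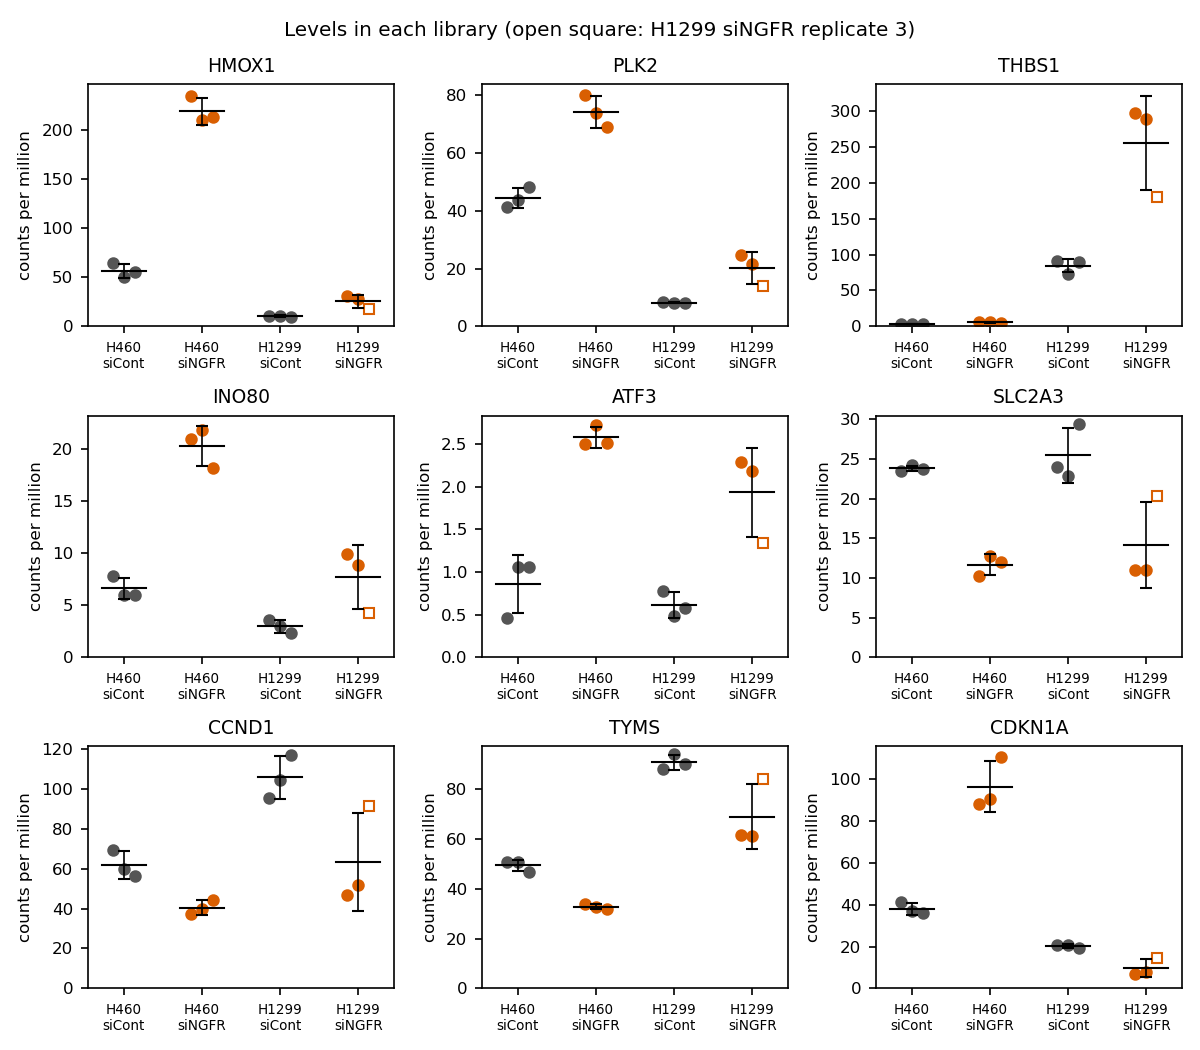
Levels in CPM of 8 genes that moved the same way and of CDKN1A in each library, by line and siRNA (3 libraries a group), with bars for the mean and whiskers for the SD. The open square, H1299 siNGFR replicate 3, lies nearer to siCont than the other H1299 siNGFR libraries for all 9 genes.

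Some genes of cell junctions, matrix and signalling moved as well. CLDN1 (ENSG00000163347, chromosome 3, 190305701 to 190322475), a tight junction protein, passed in each line alone. In H460, CLDN1 stood at 9.15, 9.06 and 9.43 CPM in the siCont libraries and 12.1, 15.1 and 16.6 CPM in the siNGFR libraries. In H1299, CLDN1 stood at 5.79, 5.94 and 7.75 CPM in siCont and 11.7, 13.3 and 11.9 CPM in siNGFR. It rose by 0.79 ± 0.10 (SE, adjusted p = 0.0015), with no overlap and in all 12 fits that left out 1 library. EHF, an epithelial transcription factor, was the other member of the list of epithelial and mesenchymal state to move. In H460, EHF stood at 3.88, 3.63 and 3.08 CPM in the siCont libraries and 1.25, 0.795 and 1.04 CPM in the siNGFR libraries. In H1299, EHF stood at 0.475, 0.973 and 0.578 CPM in siCont and 0.157, 0.273 and 0.564 CPM in siNGFR. The fall of −1.38 ± 0.28 (SE, adjusted p = 0.0184) was apart in H460 and overlapped in H1299, where every library held under 1 CPM. The mean response of EHF lost its call without H460 siCont replicate 5, H460 siNGFR replicate 5 or H1299 siCont replicate 2. EHF was still counted as moving the same way in 5 of the 12 fits that left out 1 library. The remaining 21 of 23 tested genes did not move the same way, and the median was 0.10.

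NF-κB is a stress and cytokine factor whose alternative branch runs through the kinase MAP3K14 and the subunit RELB. RELB (ENSG00000104856, chromosome 19, 45001430 to 45038198) rose in both lines. In H460, RELB stood at 3.42, 3.03 and 4.03 CPM in the siCont libraries and 7.16, 6.40 and 8.21 CPM in the siNGFR libraries. In H1299, RELB stood at 27.3, 30.2 and 28.4 CPM in siCont and 35.2, 35.5 and 37.9 CPM in siNGFR. Libraries were apart by group in both lines and replicate 3 was here the highest of H1299 siNGFR (0.70 ± 0.09 SE, adjusted p = 0.0015). BIRC3, an inhibitor of apoptosis, rose by 0.78 ± 0.17 (SE, adjusted p = 0.0307), and of the 12 fits that left out 1 library it passed in 3, without H1299 siCont replicate 1, H1299 siCont replicate 3 or H1299 siNGFR replicate 3. BIRC3 had few reads in H460, with 6, 16 and 15 counts in siCont and 18, 18 and 21 in siNGFR. RELB and BIRC3 were the 2 of 20 tested NF-κB targets that rose (10%, against 0.676% of all genes). None fell, and the median was 0.16. Without H1299 siNGFR replicate 3, 5 rose (2.49% of all genes did), and with scaling by library size alone 1 rose. MAP3K14 itself was in no list and was named after its values were seen, with a rise of 0.53 ± 0.09 (SE, adjusted p = 0.0093) and no overlap in either line.

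ID2, an inhibitor of helix-loop-helix factors, and TGFBR3, a coreceptor of TGF-β, were the 2 of 27 tested TGF-β genes that rose, by 0.68 ± 0.12 (SE) and 0.44 ± 0.09 (SE), with adjusted p-values of 0.00728 and 0.0231. That was 7.41% of the list, against 0.676% of all genes. Among 42 matrix and integrin genes, THBS1 and LAMA3, a laminin chain, rose (4.76%, against 0.676% of all genes). LAMA3 (0.80 ± 0.20 SE, adjusted p = 0.0436) was lost in each fit that left out 1 library other than that without H1299 siNGFR replicate 3. ADM, a vasodilator peptide induced by low oxygen, rose by 0.79 ± 0.13 (SE, adjusted p = 0.00515) in the list of 32 tested hypoxia and glycolysis genes. The glucose transporter SLC2A3 fell in the same list. The neurotrophins with their receptors and adaptors, the setting in which NGFR is known, gave no gene of 25 tested that moved the same way, with a median of 0.02. Over all genes 1.51% moved the same way, so a list of that size would often hold none and nothing is read from this. Without H1299 siNGFR replicate 3, 3 of them rose (2.49% of all genes did).

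SLC2A3 (ENSG00000059804, chromosome 12, 7919230 to 7936275), also called GLUT3, fell in both lines. In H460, SLC2A3 stood at 23.5, 24.2 and 23.7 CPM in the siCont libraries and 10.3, 12.7 and 12.1 CPM in the siNGFR libraries. In H1299, SLC2A3 stood at 23.98, 22.9 and 29.4 CPM in siCont and 11.02, 11.05 and 20.3 CPM in siNGFR. It fell 2.04-fold in H460 and 1.79-fold in H1299 (−0.93 ± 0.14 SE, adjusted p = 0.00366). Groups were apart in both lines, although H1299 siNGFR replicate 3 lay within 3 CPM of the lowest siCont library. SLC2A14, a near-identical neighbour of SLC2A3, fell by a like amount (−0.95 ± 0.17 SE), and reads may be split between them. ACOX2, a peroxisomal oxidase of bile acid synthesis, fell by 1.36 ± 0.27 on the log2 scale (SE, adjusted p = 0.0184), and lost the call without H460 siCont replicate 5 or H460 siNGFR replicate 5. EIF1AX, a translation initiation factor, and its pseudogene EIF1AXP1 fell together, by 0.87 ± 0.11 (SE) and 1.07 ± 0.15 (SE), and share sequence. UQCC1, an assembly factor of respiratory complex III, was the only one of the 10 genes called in each line alone that fell (−0.64 ± 0.09 SE, adjusted p = 0.00176). The other 9 were CARS, CLDN1, CITED2, PLK2, DNAH1, BSN, INO80, ATF3 and HMOX1.

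A few genes of growth control and cell division fell. CCND1 (ENSG00000110092, chromosome 11, 69641087 to 69654474) encodes cyclin D1, which drives entry into the cell cycle. In H460, CCND1 stood at 69.7, 60.1 and 56.3 CPM in the siCont libraries and 37.1, 39.9 and 44.4 CPM in the siNGFR libraries. In H1299, CCND1 stood at 95.7, 105 and 117 CPM in siCont and 46.9, 52.001 and 91.6 CPM in siNGFR. All siNGFR libraries were below all siCont libraries of their line, with falls of 1.53-fold and 1.67-fold (−0.68 ± 0.14 SE, adjusted p = 0.0252). Its H1299 siNGFR replicate 3, at 91.6 CPM, was close to the lowest siCont library, and CCND1 passed in 4 of the 12 fits that left out 1 library, those without H460 siCont replicate 6, H460 siNGFR replicate 6, H1299 siCont replicate 1 or H1299 siNGFR replicate 3. NRAS, a RAS family GTPase that is an oncogene in lung cancer, fell by 0.47 ± 0.10 (SE, adjusted p = 0.0211) and passed in 5 of those 12 fits. It was still counted as moving the same way in 3. CCND1 and NRAS were the falls among the 25 tested lung cancer drivers and suppressors (8%, against 0.829% of all genes).

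TYMS (ENSG00000176890, chromosome 18, 657604 to 673578), thymidylate synthase, makes the thymidine for DNA replication. In H460, TYMS stood at 50.8, 50.6 and 46.8 CPM in the siCont libraries and 33.7, 32.8 and 31.99 CPM in the siNGFR libraries. In H1299, TYMS stood at 88.01, 93.98 and 90.2 CPM in siCont and 61.6, 60.97 and 83.9 CPM in siNGFR. It fell 1.504-fold in H460 and 1.32-fold in H1299 (−0.49 ± 0.09 SE, adjusted p = 0.0124) and passed in all 12 fits that left out 1 library. The antisense gene TYMSOS at the same locus fell by 0.63 ± 0.13 (SE), and without strand the reads of both cannot be told apart. GINS1, a subunit of the replication fork helicase, fell by 0.41 ± 0.10 (SE, adjusted p = 0.0389), passing in 2 of those fits, without H460 siNGFR replicate 4 or H1299 siNGFR replicate 3. TYMS and GINS1 were the 2 falls among 40 tested S-phase genes (5%, against 0.829% of all genes), whose median was −0.16 and of which none rose. UBE2C and AURKA, a ubiquitin-conjugating enzyme and a kinase of mitosis, were the 2 falls among 36 tested G2/M genes (5.56%, against 0.829% of all genes). The median of that list was −0.20. UBE2C (−0.54 ± 0.12 SE, adjusted p = 0.0327) passed only in the fit without H1299 siNGFR replicate 3. AURKA (−0.43 ± 0.10 SE, adjusted p = 0.0423) passed only in those without H460 siNGFR replicate 4 or H1299 siNGFR replicate 3. AURKA was still counted as moving the same way in 1 of the 12 fits. Without H1299 siNGFR replicate 3, 5 G2/M genes fell, and 4 S-phase genes fell and 1 rose (2.24% of all genes fell and 2.49% rose). Outside the lists, and named after their values were seen, DUT, RPA2, CDKN2C and PKMYT1 fell as well, by 0.79, 0.51, 0.77 and 0.58 on the log2 scale. They act in nucleotide metabolism, in binding of single-stranded DNA and in control of cyclin-dependent kinases. PKMYT1 overlaps PAQR4, which fell by 0.81 ± 0.09 (SE).

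The promoters of TYMS and GINS1 are shown with the letters of the E2F element of replication genes in capitals, TTTCCCGC, TTTCGCGC, TTTGCCGC or TTTGGCGC on either strand. Both runs come from RefSeq and GRCh38.p14, TYMS at chr18:657403-657702 and GINS1 at chr20:25407423-25407722, each on the plus strand. The match starts at −39 in TYMS and at 6 in GINS1.
TYMS: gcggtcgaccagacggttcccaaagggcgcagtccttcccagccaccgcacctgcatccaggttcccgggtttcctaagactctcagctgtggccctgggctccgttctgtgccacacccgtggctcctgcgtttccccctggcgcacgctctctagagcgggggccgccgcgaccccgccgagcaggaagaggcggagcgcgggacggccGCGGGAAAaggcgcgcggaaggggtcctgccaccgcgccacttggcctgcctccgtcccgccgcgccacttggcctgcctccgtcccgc
GINS1: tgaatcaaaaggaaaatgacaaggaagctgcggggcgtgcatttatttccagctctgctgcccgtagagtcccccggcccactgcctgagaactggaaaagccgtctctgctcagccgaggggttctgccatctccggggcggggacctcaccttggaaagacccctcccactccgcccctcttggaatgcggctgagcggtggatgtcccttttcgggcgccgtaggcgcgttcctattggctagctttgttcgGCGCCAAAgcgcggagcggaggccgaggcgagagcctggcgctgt
Of the 99 falls with a promoter in the table, 13 (13.1%) held one of these words, and of the 110 rises 4 (3.64%). Counted per gene in the same way, the share was 6.47% over genes tested and 54.3% over the S-phase list (19 of 35). Over all promoters, counted per promoter, it was 3.31%. The element was not tested as a site.

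FDPS and EBP, enzymes of cholesterol synthesis, were the 2 falls among 31 tested genes of cholesterol and fatty acid synthesis (median −0.17), with no rise. That was 6.45% of the list, against 0.829% of all genes. FDPS fell by 0.45 ± 0.09 (SE, adjusted p = 0.0179) and EBP by 0.45 ± 0.10 (SE, adjusted p = 0.03). FDPS passed in 5 of the 12 fits that left out 1 library and EBP in 2, without H460 siNGFR replicate 4 or H1299 siNGFR replicate 3. The median of the list was −0.23 in H460 and −0.06 in H1299, a difference that was not tested.

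The largest falls by the mean of the lines were of spliceosomal small nuclear RNAs (snRNAs), the RNA parts of the machine that removes introns. U1 pairs with the start of an intron and U2 with its branch site, and U12 replaces U2 at a rare class of introns. Of the 179 falls, 39 (21.8%) were snRNA genes or copies. They were 11 of U1, 18 of U2, 6 of U4, 2 of U12, 1 of U5 and 1 of U6, and 140 falls remain without them. Of the 164 tested genes that the annotation types as snRNA, 38 (23.2%, against 0.829% of all genes) fell in both lines and none rose. In the shorter list of 42 tested spliceosomal snRNAs, 19 fell (45.2%) and the median was −1.19. Without H1299 siNGFR replicate 3, 34 fell (2.24% of all genes did).

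One copy of each of U1, U2 and U12 is shown, 5′ to 3′ from the GRCh38 genome of GENCODE v29, since many falls are copies of 1 sequence and cannot be read as separate results. The capitals are the letters that pair with the 5′ splice site (RNU1-1), the branch site (RNU2-1) and the branch site of U12-type introns (RNU12). RNU1-1 lies at chr1:16514122-16514285 (minus strand), RNU2-1 at chr17:43233787-43233977 (minus strand) and RNU12 at chr22:42615244-42615393 (plus strand).
RNU1-1: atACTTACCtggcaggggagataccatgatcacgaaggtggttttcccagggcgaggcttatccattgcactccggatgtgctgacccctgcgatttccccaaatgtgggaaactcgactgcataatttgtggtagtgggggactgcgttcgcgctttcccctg
RNU2-1: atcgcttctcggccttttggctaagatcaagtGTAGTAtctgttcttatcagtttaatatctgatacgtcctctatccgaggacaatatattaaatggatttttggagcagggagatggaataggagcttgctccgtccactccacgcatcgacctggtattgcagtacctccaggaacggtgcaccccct
RNU12: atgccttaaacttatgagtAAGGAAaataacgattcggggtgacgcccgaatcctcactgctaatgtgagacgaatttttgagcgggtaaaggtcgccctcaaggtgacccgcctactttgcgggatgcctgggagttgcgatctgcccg
Of the 11 U1 genes that fell, 8 had the sequence of RNU1-1 base for base, and of the 18 U2 genes 11 had that of RNU2-1. The reads of such copies cannot be assigned to 1 of them, so the families were also summed.

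As a sum of all its genes and copies, U1 in H460 stood at 20643, 16072 and 26837 CPM in the siCont and 11525, 9531 and 10979 CPM in the siNGFR libraries. In H1299 it was at 50861, 89611 and 42238 CPM in siCont and at 9283, 9490 and 34859 CPM in siNGFR. Groups were apart in both lines, but H1299 siNGFR replicate 3 sat close to the lowest siCont library. RNU1-1 fell by 1.37 ± 0.31 on the log2 scale (SE, adjusted p = 0.0307), and like RNU1-2, RNU1-3, RNU1-4, RNU1-27P and RNVU1-18 it passed in only 3 of the fits that left out 1 library, without H1299 siCont replicate 1, H1299 siCont replicate 3 or H1299 siNGFR replicate 3.

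U2 differed less between libraries of a group in H1299. In H460 its genes summed to 2482, 3804 and 5934 CPM in siCont and to 1757, 1978 and 1952 CPM in siNGFR. The H1299 sums were 8293, 11567 and 7727 CPM in siCont and 4096, 4734 and 5294 CPM in siNGFR. For U2, H1299 siNGFR replicate 3 was with its group. Both RNU2-1 copies that the rule named (chromosome 17, 43300041 to 43300231 and 43251829 to 43252019) fell about equally in the lines, the first by 1.16 in H460 and 1.12 in H1299 (mean −1.14 ± 0.18 SE, adjusted p = 0.00494), and both passed in all 12 fits that left out 1 library.

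The 2 annotated U12 genes, which overlap, had a median log2 fold change of −1.95 against −1.34 for U1 and −1.10 for U2. Their sum was at 162, 112 and 201 CPM in H460 siCont and 63.7, 41.5 and 42.6 CPM in H460 siNGFR. RNU12 alone stood at 81.5, 56.8 and 101 CPM in H460 siCont. Reads of the overlap may be counted in both genes, so the level of the sum may be too high. In H1299 the sum was at 243, 477 and 218 CPM in siCont and 22.3, 20.9 and 158 CPM in siNGFR. Libraries were apart by group in both lines, and H1299 siNGFR replicate 3 was again between. RNU12 fell by 1.92 ± 0.41 (SE, adjusted p = 0.027) and passed in 7 of 12 fits that left out 1 library. The copies of U4 that fell, among them RNU4-91P (−2.30 ± 0.47 SE, adjusted p = 0.0214) and RNU4-13P (−2.13 ± 0.47 SE, adjusted p = 0.0298), are pseudogenes whose reads may come from U4 itself. WDR74, which fell by 0.81 ± 0.19 (SE), overlaps the U2 copy RNU2-2P, so their reads cannot be told apart.

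**Figure D4:**
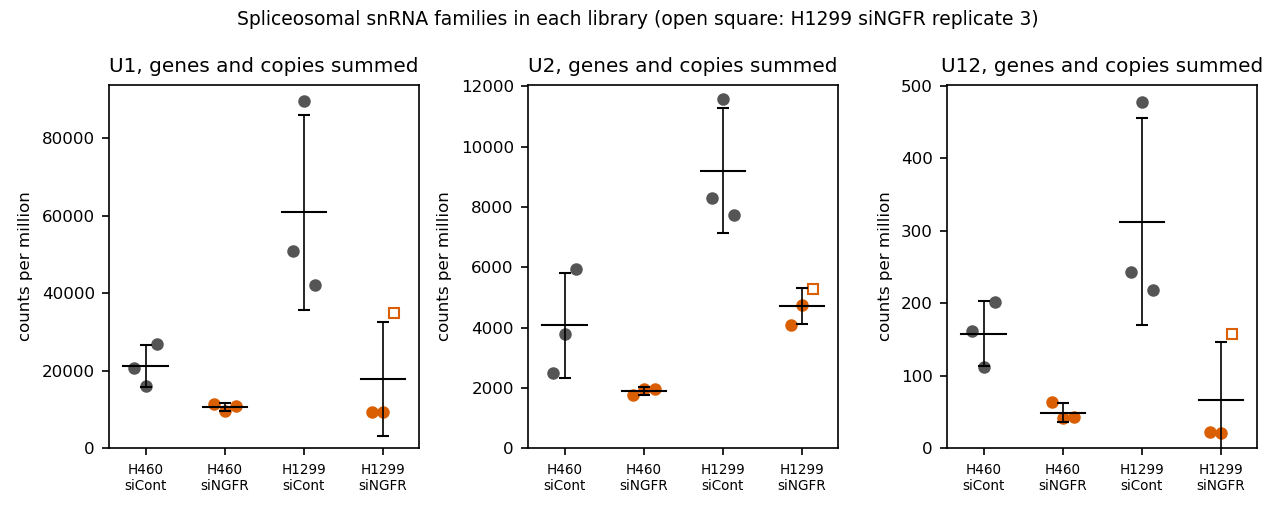
Levels in CPM of U1, U2 and U12 snRNA, each summed over its genes and copies, in each library by line and siRNA (3 libraries a group), with bars for the mean and whiskers for the SD. All siNGFR points lie below the siCont points of their line, and the open square, H1299 siNGFR replicate 3, lies above the other H1299 siNGFR points. The U12 genes overlap, so reads may be counted in both and the level of their sum may be too high.

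Short genes, those with less than 400 exon bases, held 43.1% to 48.2% of counts in H460 siCont and 50.5% to 55.6% in H460 siNGFR, but 48.7% to 53.7% in H1299 siCont and 41.7% to 50.6% in H1299 siNGFR. The share of short RNAs thus went up in one line and down in the other while the snRNAs fell in both, and its part in the result was not tested. For the listed snoRNAs, the share that rose was near the 0.676% of all genes. Among the listed RNAs, SNORD55 alone rose of 170 tested C/D box snoRNAs (0.588%, 0.60 ± 0.10 SE, adjusted p = 0.00506). SCARNA6 alone rose of 145 listed H/ACA and Cajal body RNAs (0.69%, 0.90 ± 0.20 SE, adjusted p = 0.0313), with overlap in H460. None of these lists held a fall (0.829% of all genes fell). None of the 14 tested genes in the list of other Pol III RNAs moved the same way (1.51% of all genes did). Without H1299 siNGFR replicate 3, 4 C/D box RNAs rose and 2 fell, and 3 H/ACA and Cajal body RNAs rose and 10 fell. Over all genes 2.49% rose and 2.24% fell without that library. With scaling by library size alone neither list held a rise, SNORD55 and SCARNA6 included, while 2 C/D box and 7 H/ACA and Cajal body RNAs fell, and with DESeq2's size factors 1 of the latter fell. EPB41L4A-AS1 was the 1 of 19 tested snoRNA hosts that rose (5.26%, against 0.676% of all genes, 0.46 ± 0.09 SE, adjusted p = 0.014). Outside these lists, the snoRNA genes U3 (ENSG00000221332) and ACEA_U3 (ENSG00000277492) rose in both lines, by 1.43 and 1.21 on the log2 scale. A Y RNA gene (ENSG00000202357) fell in both (−1.40). They were still counted as moving the same way in 3, 8 and 4 of the 12 fits that left out 1 library.

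Several lists held no gene that moved the same way in edgeR's quasi-likelihood test. Over all genes 0.676% rose and 0.829% fell, so a small list would often hold none, and the absence is a description. These were 90 ribosomal proteins (median −0.14), 77 mitochondrial ribosome genes (−0.10), 84 nuclear oxidative phosphorylation genes (−0.21), 39 proteasome genes (−0.01), 54 spliceosome proteins (−0.03), 39 interferon-stimulated genes (0.11), 18 heat shock chaperones (0.07), 15 genes of RNA interference (0.14), 474 zinc finger genes (0.08) and 67 replication-dependent histones (−0.56). The 33 immediate-early genes held 1, ATF3 (median 0.04). Lists near 0 had no direction of their own, as C/D box, matrix, immediate-early, proteasome and neurotrophin medians changed sign with the scaling. The histones were lower at an unadjusted p under 0.05 in 50 of 67 genes in H1299 and in 2 in H460, and without H1299 siNGFR replicate 3 the counts of genes that fell in both lines became 14 for histones, 8 for oxidative phosphorylation, 3 for the spliceosome and 1 each for ribosomal proteins and zinc finger genes. Without that library 7 zinc finger, 2 spliceosome, 2 RNA interference and 1 interferon-stimulated genes rose (2.49% of all genes rose and 2.24% fell). With scaling by library size alone, 16 histone genes, 10 of oxidative phosphorylation, 2 of the spliceosome and 1 each of the ribosomal protein, mitochondrial ribosome, heat shock and zinc finger lists fell in both lines. Under that scaling no gene of the TGF-β, matrix or epithelial and mesenchymal lists rose, and 1 TGF-β gene fell.

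The rises and falls differed in exon length, a property that the rule had not used. The median exon length of the protein-coding rises was 7014 bases (125 genes) and of the falls 4068 bases (119 genes), against 4813 over the 13773 protein-coding genes tested. Among the 2754 of these genes with 7853 bases or more, 51 rose and 13 fell, and among the 2756 with 2674 bases or less, 11 rose and 32 fell. In the length classes between, from short to long, 18, 22 and 23 rose and 26, 30 and 18 fell. Of all genes tested, 0.676% rose and 0.829% fell. Across protein-coding genes, the mean log2 fold change had a Spearman correlation of 0.20 with exon length, 0.25 in H1299 and 0.05 in H460, as a description over genes that share all libraries. GC content of the exons had a correlation of −0.12 with the mean response, and its medians were 50.8% for the rises, 50.3% for the falls and 48.5% over all. The part of length in the result was not tested.

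Several members of repeated gene families rose, which was noticed after the values were seen. Of 16 tested members of NBPF, a family expanded in primates, 6 rose, by 0.68 to 0.85, as did 5 of 19 tested NPIP genes, 3 of 10 HERC2 pseudogenes and 2 of 7 SMG1 pseudogenes. Of 4 tested SRGAP2 genes 3 fell, and of 4 SLX1 genes 2. Of all genes tested, 0.676% rose and 0.829% fell in both lines. The members of these families are near-identical copies between which the counting may split reads, so each family is closer to 1 result than to several. NBPF14 can stand for its family. In H460, NBPF14 stood at 18.3, 16.99 and 16.9 CPM in the siCont libraries and 34.9, 37.5 and 31.2 CPM in the siNGFR libraries. In H1299, NBPF14 stood at 9.46, 9.19 and 8.21 CPM in siCont and 14.3, 13.5 and 10.3 CPM in siNGFR. It rose 1.98-fold in H460 and 1.41-fold in H1299, and no siNGFR library overlapped siCont.

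Leaving out single libraries changed the counts. Without H1299 siNGFR replicate 3, 549 genes (2.49%) rose and 494 (2.24%) fell in both lines of 22006 tested, and these held 307 of the 325 genes. Leaving out any other library lowered or kept the counts. The rises and falls were 105 and 91 without H460 siCont replicate 4, 59 and 68 without replicate 5, and 71 and 77 without replicate 6. They were 102 and 122, 94 and 52, and 128 and 74 without H460 siNGFR replicates 4, 5 and 6. In H1299 they were 117 and 101, 85 and 65, and 146 and 93 without siCont replicates 1, 2 and 3, and 54 and 62, and 76 and 76 without siNGFR replicates 1 and 2. All 325 genes kept the sign of their mean response in each of the 12 fits. Each fit reused most of the libraries that had chosen the genes, so the kept signs are a description. Of the 325 genes, 78 (38 higher, 40 lower) were counted as moving the same way in all 12. In none were 4, POMK, MC1R, ABHD15 and NCAPG. The gene just inside the threshold was KCTD21 (0.51 ± 0.13 SE, adjusted p = 0.0496) and the one just outside was RNU1-82P, a U1 copy (adjusted p = 0.05).

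**Figure D5:**
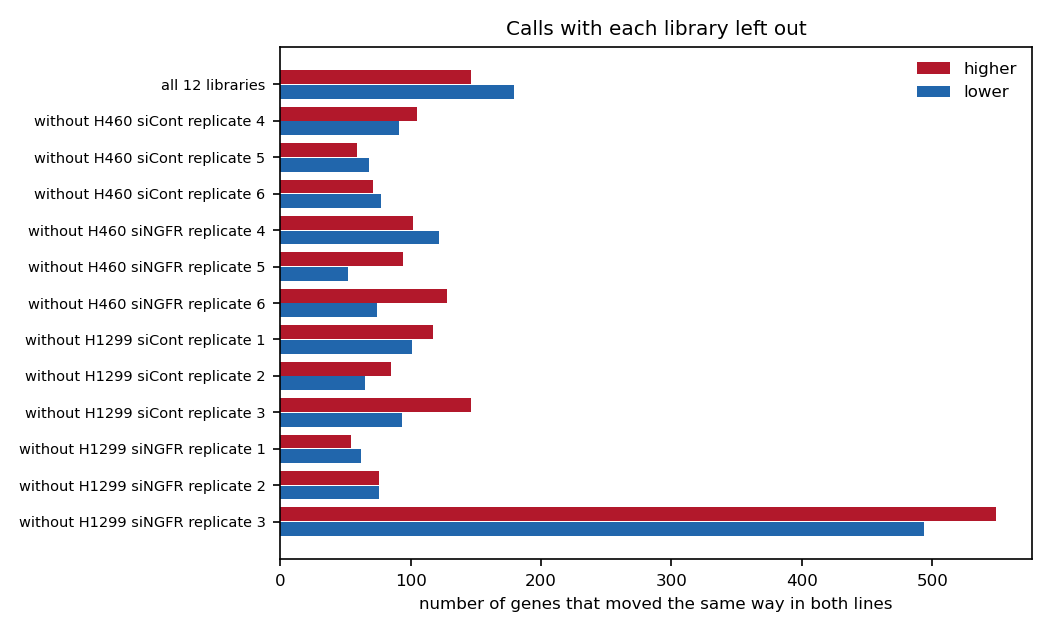
Number of genes that moved the same way in both lines, higher (red) and lower (blue), with all 12 libraries and with each library left out in turn. The bars start at 0, the counts with all libraries are 146 and 179, and only the fit without H1299 siNGFR replicate 3 exceeds both, with 549 and 494.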

How the data were processed

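RNA was depleted of rRNA, made into libraries and sequenced with Ion PI chemistry for 12 libraries, 3 in each of 4 groups. The deposited values used are the read counts per gene that the authors made, with no normalization. Per the submitters' processing notes, STAR, Bowtie2 and hg38 were used, with no versions. The tool that counted the reads, and its use of strand, are not stated in the sources used here. Total counts per library were 16672164 to 36116823. The 24 columns of other per-sample values and the tables of the authors' own comparisons (fold changes and probabilities) were not used.

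Genes were tested in R 4.3.3 with edgeR 4.0.16 (filterByExpr, TMM scaling, quasi-likelihood test, Benjamini-Hochberg over all genes tested), with 1 term per group and contrasts for each line, their mean and their difference. CPM values use the TMM effective library size. p-values measure the spread between libraries that the labels call biological replicates. limma 3.58.1 and DESeq2 1.42.0 were alternatives, with other scalings, filters, models and each library left out. The test was run first on simulated data.

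H460 columns are numbered 4 to 6, which the labels do not carry, so they were taken as replicates of their group. Names and exon lengths came from the deposited gene table, apart from 29 names turned into dates, which were looked up by ID. Coordinates, gene types and GC content came from GENCODE v29 (56591 of 64253 IDs). Named genes were NGFR, CDKN1A and MDM2, the 12 largest rises and the 12 largest falls among genes averaging 50 or more counts whose groups did not overlap, up to 2 per list and direction by p, and the genes beside the threshold, and 1 more gene that the rule names is not reported here. Copies of the small RNAs are summarised, and genes named beyond this were chosen after their values were seen. The members and lists were chosen with earlier results of these data known.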

Additional observations from a re-analysis of the deposited data

Results flagged for a closer look

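CDKN1A and MDM2 responded differently in the lines by the contrast of the responses themselves. For CDKN1A the log2 fold change was 1.34 in H460 and −1.06 in H1299, a difference of 2.401 (edgeR's quasi-likelihood test, Benjamini-Hochberg adjusted p = 0.00468). For MDM2 it was 0.99 in H460 and −0.13 in H1299, a difference of 1.12 (adjusted p = 0.0192).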

How the results depend on the processing

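The mean response called 255 genes higher and 302 lower, 146 and 179 moved the same way, none of these passed the test of a difference between the lines, and the lists held 51. With scaling by library size alone these became 122 and 737, 57 and 361, 11, and 95. With no filter they were 872 and 775, 342 and 325, 54, and 122, and under limma voom with sample weights 2097 and 3118, 632 and 841, 163, and 209. DESeq2 gave 480 and 479 for the mean response and 3 that differed, and the additive model 126 and 141. Upper-quartile scaling and at least 10 counts in every library each gave 1 that differed, and at least 400 bases of exon gave 2. With an adjusted p in each line 9 rose and 1 fell, with an adjusted p of the mean and the same sign 246 and 290, and with over 1.5-fold in both lines 49 and 84. Leaving out 1 library gave 86 to 2108 higher and 82 to 2028 lower for the mean response, 54 to 549 and 52 to 494 that moved the same way, 0 to 145 that differed and 25 to 150 in the lists, the upper end of each without H1299 siNGFR replicate 3. The mean response of CDKN1A, which was not called, reversed to −0.06315 under limma voom and ran from −0.01992 to 0.2484 with 1 library left out, the low end without H1299 siNGFR replicate 3. The causes were not tested. Same-numbered libraries had correlations of 0.03, 0.07 and 0.02 in H460 and 0.26, −0.16 and 0.15 in H1299. Libraries of different numbers had −0.06 to 0.02 in H460 and −0.36 to 0.24 in H1299. In H460 each same-numbered value was the highest for its siCont library. The numbers were not taken to pair the libraries, but a pairing in H460 is not excluded. A replicate block gave 175 and 294 for the mean response, 117 and 181 that moved the same way and 0 that differed. Of the 325 genes, 232 were also called with that block. Over the named genes and alternatives, 937 values kept their direction and call, 246 lost the call, 10 gained it and 2 reversed. NGFR, at 0 to 6 counts in each library, was too low to be tested.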

Other observations

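In 23 genes the mean response passed while the lines differed (edgeR's quasi-likelihood test, Benjamini-Hochberg adjusted), so a called mean alone does not describe both lines. IGFBP3, a binding protein of insulin-like growth factors, had log2 fold changes of −0.34 in H460 and 2.47 in H1299 (adjusted p of the difference 6.6e-05). DKK1, a secreted WNT inhibitor, had 3.11 and 0.27 (adjusted p = 0.00403). RHOB, a small GTPase, had −0.03 and 1.40, and the cyclin CCNF had −1.10 and 0.01.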
